A study of Mus musculus with 8 samples.

Results

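The nitric oxide and cyclic GMP pathway was followed here through 10 genes, Nos1, Nos2, Nos3, Gucy1a2, Gucy1a3, Gucy1b3, Prkg2, Pde5a, Ddah1 and Ddah2, chosen by name from the 23420 genes of the deposited table. RNA was sequenced from whole aortas of 8 mice, each mouse giving 1 library. All 8 recipients were irradiated ApoE-/- mice, which lack apolipoprotein E and become hypercholesterolemic, and all were infused with angiotensin II (Ang II) at 1 µg/kg/min for 28 days, a treatment that produces abdominal aortic aneurysm. In 4 of them (replicates A to D) the blood system had been rebuilt from fetal liver cells of Ntn1-/- ApoE-/- donors, which lack netrin-1, and in the other 4 (A to D) from fetal liver cells of Ntn1+/+ ApoE-/- donors. These chimeras are called Ntn1-/- and WT below, so that both donors and recipients of both groups lacked ApoE, and there was no group without Ang II. The vessel wall itself belonged to the recipient and kept an intact Ntn1 gene. The comparison asked how the loss of netrin-1 from hematopoietic cells changed the transcriptome of the aorta under Ang II. In the paper, aneurysm was less frequent in Ntn1-/- than in WT chimeras. Whether each sequenced aorta had an aneurysm was not given in the sources used here. Effects of the donor genotype and of aneurysm itself therefore cannot be told apart.

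Nitric oxide is made from arginine by the nitric oxide synthases. In the vessel wall the endothelial enzyme releases it in small amounts, and it passes to the underlying smooth muscle. There it binds the heme of soluble guanylyl cyclase, a dimer of an alpha and a beta subunit, which makes cyclic GMP (cGMP). This messenger switches on cGMP-dependent protein kinase, which lowers calcium and relaxes the muscle, and phosphodiesterases such as PDE5 break it down. Asymmetric dimethylarginine, an inhibitor of the synthases, is removed by the 2 DDAH enzymes.

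Values are normalized reads, which are reads per gene divided by 1 size factor per library. The 8 libraries held 19879329 to 28202931 reads in genes. Defining markers of an aorta were present in every library: the summed value of 8 smooth muscle markers (such as Myh11 and Acta2) was 314573 to 822511 normalized reads in Ntn1-/- aortas and 468673 to 782616 in WT aortas, and that of 8 endothelium markers was 18954 to 25072 in Ntn1-/- and 20830 to 23006 in WT. Tissue around the vessel was also present, with 5 white adipocyte markers summing to 57723 to 196846 in Ntn1-/- and 85534 to 217429 in WT. In such bulk tissue, fewer cells of a type and less RNA per cell cannot be told apart. Aortas Ntn1-/- B and C stood apart from the other 6, with 10 neuron markers at 9868 and 7529 against 1671 to 2834 elsewhere, and 8 skeletal muscle markers at 7485 and 7429 against 243 to 2630. Ntn1 itself averaged 7923 ± 2419 normalized reads in Ntn1-/- and 7564 ± 1698 in WT (SD, n = 4 each), which in whole aorta, where the recipient's cells have the gene, is no complete check of the labels.

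None of the 10 genes passed the test between Ntn1-/- and WT aortas by limma, edgeR or DESeq2. Nos1 was not tested, and the other 9 had a mean of at least 10 normalized reads and were. Their estimates were higher in Ntn1-/- for 6 (Nos2, Gucy1a2, Gucy1a3, Gucy1b3, Prkg2 and Pde5a) and lower for 3 (Nos3, Ddah1 and Ddah2), with a median log2 fold change of 0.12, against -0.01 over all 14931 genes tested. By limma with Benjamini-Hochberg adjustment over all genes tested 0 of 9 were called, and the background was 0% of all genes. At an unadjusted p under 0.05 there was 1, Ddah2, and the background was 15.6%. DESeq2 on the recovered reads called 0 of the 9 as well, with 3% of its 16518 genes called, and edgeR called 0 genes in the whole table, with 2461 at an unadjusted p under 0.05. None of the 9 had groups that did not overlap, against a background of 10.5%. Without Ntn1-/- B and C, again none of the 9 was called by limma (adjusted p = 0.354 to 0.956). The log2 fold changes were then 0.39 for Nos2, 0.20 for Gucy1a2, 0.20 for Prkg2 and 0.65 for Ddah1, and -0.21 for Nos3, -0.34 for Gucy1a3, -0.04 for Gucy1b3, -0.13 for Pde5a and -0.29 for Ddah2, so that 4 of the 9 had another sign.

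**Figure D1:**
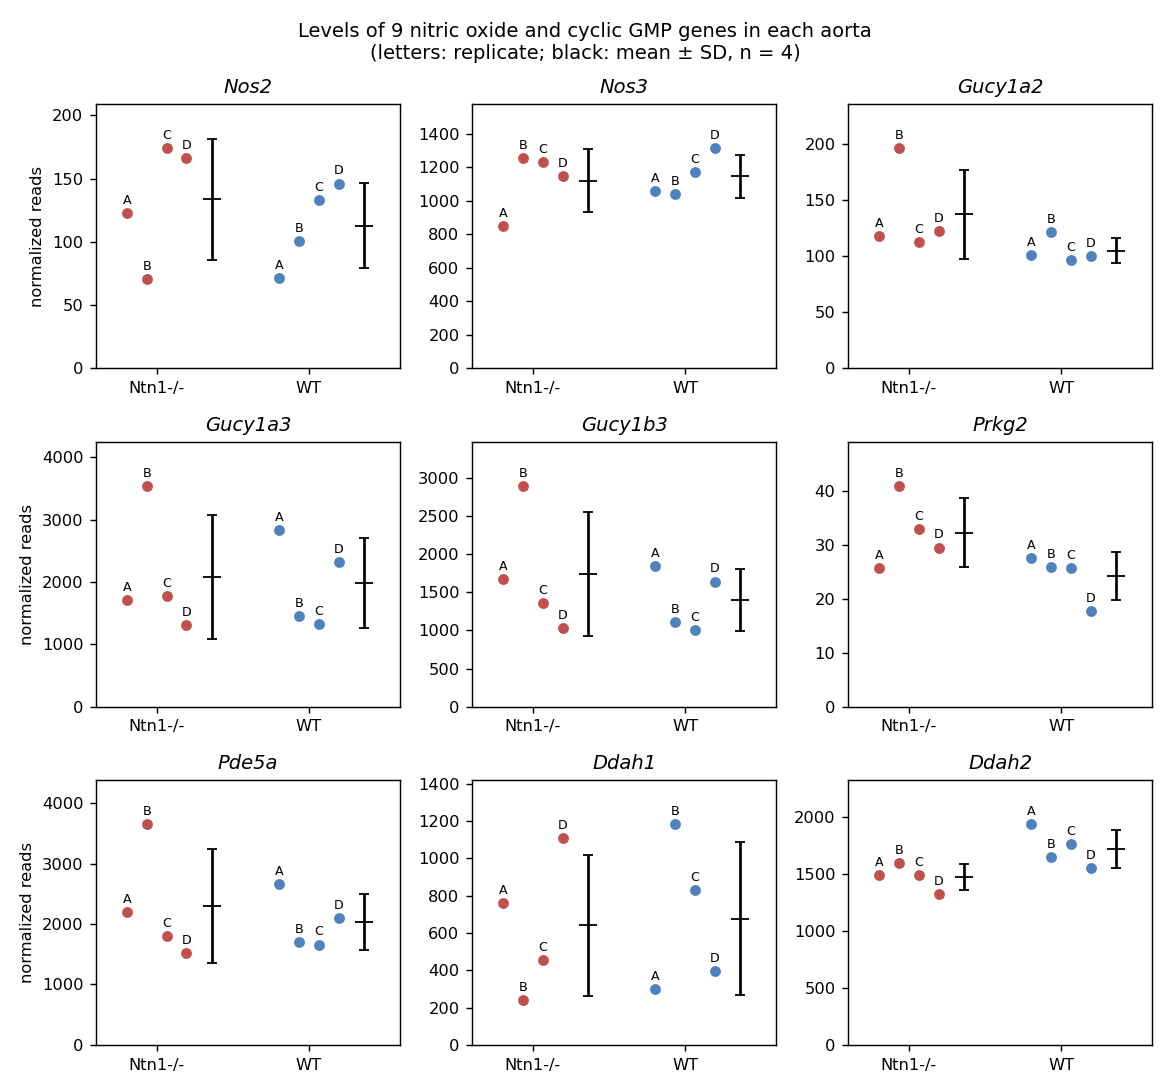
Normalized reads of the 9 tested genes in each aorta, Ntn1-/- in red at the left of each panel and WT in blue at the right, with the replicate letter above each point and the mean ± SD (n = 4) in black. In each panel the groups overlap. Gucy1a3, Gucy1b3 and Pde5a were highest in aorta Ntn1-/- B, where Ddah1 was lowest.

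**Figure D2:**
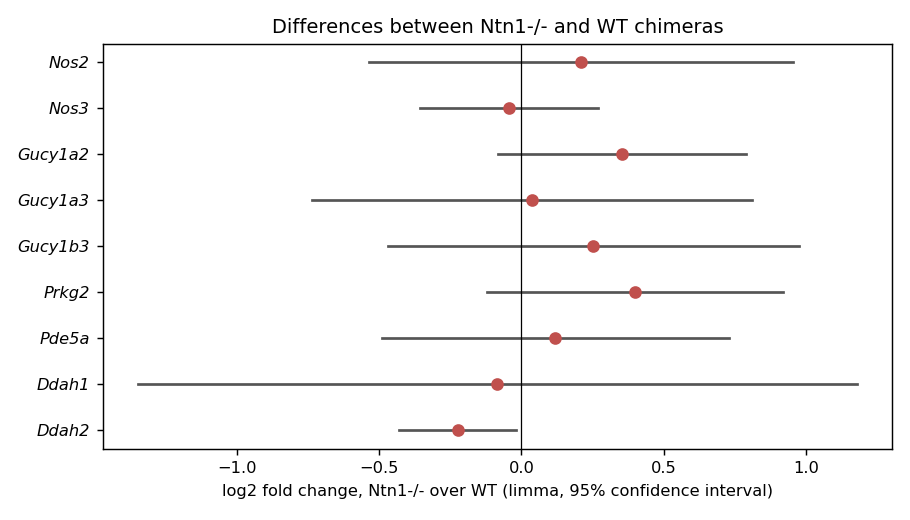
Log2 fold change of each tested gene, Ntn1-/- over WT, from limma on log2(normalized reads + 1), with its 95% confidence interval as a line. The interval of Ddah2 (-0.43 to -0.02) excludes 0 before adjustment and the other 8 include 0, that of Ddah1 (-1.35 to 1.18) being the widest.

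Among the synthases, the transcript of the endothelial enzyme was the most abundant. Nos3, which encodes it (mm9, chr5:23870628-23890292, plus strand), had 847, 1257, 1231 and 1149 normalized reads in Ntn1-/- aortas A to D, against 1059, 1040, 1169 and 1316 in WT aortas A to D. The lowest library was Ntn1-/- A and the highest WT D, and the Ntn1-/- range held most of the WT range. The means were 1121 ± 188 in Ntn1-/- and 1146 ± 127 in WT (SD, n = 4 each), a log2 fold change of -0.04 with a 95% confidence interval of -0.36 to 0.27 (limma, adjusted p = 0.910). Per 1000 normalized reads of the endothelium markers, a scale chosen after the data were seen and given with no test, Nos3 stood at 44.7 to 53.3 in Ntn1-/- and 48.3 to 57.2 in WT, a 1.28-fold span over the 8 aortas. In the annotation, 1040 of its 4132 exon bases are shared with Gm15587 and 294 with Atg9b, both on the opposite strand. The strand setting of the counting was not given in the sources used here, so that reads of Nos3 and of these neighbors cannot be told apart there. Atg9b, an autophagy gene, was itself low, at 31.4 to 70.7 normalized reads in Ntn1-/- and 38.0 to 82.5 in WT.

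Nos2 encodes the inducible synthase of activated macrophages and other stimulated cells (mm9, chr11:78734289-78773756, plus strand). It had 123, 70.4, 174 and 167 normalized reads in Ntn1-/- A to D, against 71.4, 101, 133 and 146 in WT A to D. Aortas Ntn1-/- B and WT A were the 2 lowest and Ntn1-/- C and D the 2 highest, so that the ends of the range lay within the Ntn1-/- group. The means were 134 ± 47.8 in Ntn1-/- and 113 ± 33.5 in WT (SD, n = 4 each), with a log2 fold change of 0.21 and an interval of -0.54 to 0.95 (limma, adjusted p = 0.791). Single aortas moved this estimate widely, to 0.0089 without WT A and 0.49 without Ntn1-/- B. Ntn1-/- B and WT A were also lowest in the summed macrophage markers, at 17935 in Ntn1-/- B and 29515 in WT A against 33674 to 72564 in the other 6, and in the summed white adipocyte markers, and the part of either in the level of Nos2 was not tested. Per 1000 normalized reads of 7 macrophage markers, a scale chosen after the data were seen, Nos2 stood at 3.65, 3.92, 4.10 and 2.30 in Ntn1-/- A to D, against 2.42, 1.55, 2.78 and 2.47 in WT A to D. On that scale 3 of the Ntn1-/- aortas were above the 4 WT aortas and Ntn1-/- D was below 3 of them, so the groups overlapped.

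Nos1, the neuronal synthase (mm9, chr5:118231041-118408849, plus strand), gave 4 reads in all. There was 1 in Ntn1-/- B and none in Ntn1-/- A, C and D, against 2 in WT B, 1 in WT D and none in WT A and C. A library with no read allows up to 3, so no fold is given. The gene was near 0 also in Ntn1-/- B and C, the aortas with the highest neuron markers.

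For each tested synthase the genes with the most similar profile were sought as a description, by Pearson's r of log2(normalized reads + 1) over the 8 libraries, which share depth and tissue makeup. For Nos2 they were Lrtm1 (r = 0.99), Kbtbd11 (0.99) and Mlxipl (0.98). For Nos3 they were Rogdi (0.98), Ccdc106 (0.97) and Tmem221 (0.94).

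The ratio of Nos2 to Nos3 reads was 0.145, 0.0560, 0.142 and 0.145 in Ntn1-/- A to D, against 0.0674, 0.0971, 0.114 and 0.111 in WT A to D. In 3 Ntn1-/- aortas it was above each WT aorta, and in Ntn1-/- B below each of them, so the groups overlapped.

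The 2 DDAH genes, whose enzymes break down the methylarginine inhibitors of the synthases, behaved differently from each other. Ddah2 (mm9, chr17:35195980-35199040, plus strand) was the only gene of the 9 with an unadjusted p under 0.05. It had 1485, 1591, 1491 and 1319 normalized reads in Ntn1-/- A to D, against 1933, 1643, 1758 and 1547 in WT A to D. The groups overlapped through a single pair, as Ntn1-/- B lay above WT D. The means were 1471 ± 113 in Ntn1-/- and 1720 ± 166 in WT (SD, n = 4 each), a log2 fold change of -0.22 with an interval of -0.43 to -0.02 (limma, unadjusted p = 0.0359, adjusted p = 0.294, DESeq2 adjusted p = 0.231). The difference did not pass the test, and it shrank to -0.03 on the log2 scale once gene length and GC content were allowed for in each library. Ddah2 is short and GC-rich, with 1593 exon bases at 59.1% GC.

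Ddah1 (mm9, chr3:145421639-145557241, plus strand) varied most among the 9. It had 758, 239, 455 and 1107 normalized reads in Ntn1-/- A to D, against 297, 1182, 829 and 396 in WT A to D. High and low aortas occurred in both groups, with WT B 4.95 times Ntn1-/- B. The means of 640 ± 377 in Ntn1-/- and 676 ± 409 in WT (SD, n = 4 each) gave a log2 fold change of -0.08 with an interval of -1.35 to 1.18 (limma, adjusted p = 0.962), which leaves room for a change of over 2-fold in either direction. The spread of Ddah1 within groups was wider than that of 97.9% of all genes tested.

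As a ratio within each library, Ddah1 to Ddah2 reads stood at 0.150 to 0.839 in Ntn1-/- and 0.154 to 0.719 in WT. The ratio thus moved over 5.60-fold between aortas with groups that overlapped, and Ddah2 by itself over 1.47-fold.

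The receptor of nitric oxide in smooth muscle is assembled mainly from the alpha-1 subunit, encoded by Gucy1a3 (now Gucy1a1), and the beta-1 subunit, encoded by Gucy1b3 (now Gucy1b1), which both lie on chromosome 3 (mm9, chr3:81896350-81949799 and chr3:81835926-81878633, minus strand). Pde5a, for the phosphodiesterase that hydrolyzes cGMP and is the target of sildenafil, lies further along the same chromosome (mm9, chr3:122432076-122562292, plus strand), as does Ddah1. Because the first 3 moved together from aorta to aorta and Ddah1 ran the other way, the 250 bases before the start site of each are shown. The sequences are RefSeq's in build GRCm38.p6, which is not the build of the reads, and 7 of the 10 genes had an entry. Capitals mark matches on either strand to the GC box GGGCGG or the CCAAT box, which reads ATTGG where it lies on the strand not shown. For Gucy1a3, the first of 2 listed start sites is given.
Gucy1a3, GRCm38.p6 chr3:82145651-82145900, minus strand: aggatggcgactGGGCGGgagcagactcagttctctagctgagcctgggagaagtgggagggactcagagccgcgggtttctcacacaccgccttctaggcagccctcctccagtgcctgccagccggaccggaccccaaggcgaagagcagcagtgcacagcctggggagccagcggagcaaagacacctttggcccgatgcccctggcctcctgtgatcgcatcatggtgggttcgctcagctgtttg
Gucy1b3, GRCm38.p6 chr3:82074712-82074961, minus strand: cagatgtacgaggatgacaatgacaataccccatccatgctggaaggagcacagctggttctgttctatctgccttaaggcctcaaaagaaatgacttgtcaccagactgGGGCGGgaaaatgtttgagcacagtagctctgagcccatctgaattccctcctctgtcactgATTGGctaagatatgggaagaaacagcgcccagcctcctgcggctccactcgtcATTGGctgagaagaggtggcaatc
Pde5a, GRCm38.p6 chr3:122728908-122729157, plus strand: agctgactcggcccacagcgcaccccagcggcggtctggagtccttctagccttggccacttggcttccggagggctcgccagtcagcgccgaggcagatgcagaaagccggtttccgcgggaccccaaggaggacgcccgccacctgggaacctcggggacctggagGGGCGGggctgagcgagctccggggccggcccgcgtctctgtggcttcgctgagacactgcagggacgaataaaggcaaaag
Ddah1, GRCm38.p6 chr3:145758442-145758691, plus strand: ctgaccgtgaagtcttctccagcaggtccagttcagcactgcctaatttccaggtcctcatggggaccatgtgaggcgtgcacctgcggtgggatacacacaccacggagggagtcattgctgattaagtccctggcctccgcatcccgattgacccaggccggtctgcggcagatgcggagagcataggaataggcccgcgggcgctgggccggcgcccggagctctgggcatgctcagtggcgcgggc
Counted from the start site, a GC box begins at -238 for Gucy1a3, at -140 for Gucy1b3 and at -82 for Pde5a, and Gucy1b3 has CCAAT boxes on the other strand that begin, as shown, at -78 and -24. Neither motif occurs in the window of Ddah1, nor in that of the second start site of Gucy1a3. Among the windows not shown, Ddah2 has 2 GC boxes, Gucy1a2 has 1 GC box and 1 CCAAT box, and Nos1 has neither motif. The motifs thus do not set the genes that moved together apart from the others. The TATA box TATAAA and the CArG box, the element bound by serum response factor at many smooth muscle genes, had no match in the 4 windows shown. Of 32841 mouse promoters of the same length, 32.7% hold a GC box, 33.9% a CCAAT box, 12.4% a TATA box and 1.5% a CArG box, so the GC box is common. A match describes the letters only.

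Gucy1a3 had 1714, 3540, 1776 and 1306 normalized reads in Ntn1-/- A to D, against 2832, 1451, 1330 and 2327 in WT A to D. Ntn1-/- B was highest and Ntn1-/- D lowest, so that the whole WT range lay inside that of Ntn1-/-. The means were 2084 ± 993 in Ntn1-/- and 1985 ± 719 in WT (SD, n = 4 each), with a log2 fold change of 0.04 and an interval of -0.74 to 0.81 (limma, adjusted p = 0.974).

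Gucy1b3 had 1674, 2896, 1365 and 1038 normalized reads in Ntn1-/- A to D, against 1846, 1114, 1010 and 1643 in WT A to D. The highest aorta was again Ntn1-/- B, the next WT A, and the groups overlapped. The means were 1743 ± 811 in Ntn1-/- and 1403 ± 405 in WT (SD, n = 4 each), with a log2 fold change of 0.25 and an interval of -0.47 to 0.98 (limma, adjusted p = 0.734).

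Pde5a had 2203, 3650, 1806 and 1520 normalized reads in Ntn1-/- A to D, against 2669, 1701, 1661 and 2104 in WT A to D. Its order of aortas differed from that of Gucy1b3 only at the low end. The means were 2295 ± 946 in Ntn1-/- and 2034 ± 468 in WT (SD, n = 4 each), with a log2 fold change of 0.12 and an interval of -0.49 to 0.73 (limma, adjusted p = 0.862). Leaving out Ntn1-/- B turned the estimates of all 3 genes below 0, to -0.25 for Gucy1a3, -0.03 for Gucy1b3 and -0.13 for Pde5a.

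These 3 genes had their highest values in the aortas with the most smooth muscle RNA. The summed smooth muscle markers were 634749, 822511, 522595 and 314573 normalized reads in Ntn1-/- A to D, against 782616, 468673, 474521 and 633722 in WT A to D. Ntn1-/- B and WT A, the 2 highest for the markers, were the 2 highest for Gucy1a3, Gucy1b3 and Pde5a and the 2 lowest for Ddah1, while Ntn1-/- D, WT B and WT C, the 3 lowest for the markers, were the 3 lowest for these 3 genes and the 3 highest for Ddah1. No marker gene passed the test, 2 of the 8 smooth muscle markers had higher and 6 lower estimates in Ntn1-/- (median log2 fold change -0.03), and the part of tissue makeup in the levels of the 3 genes was not tested.

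**Figure D3:**
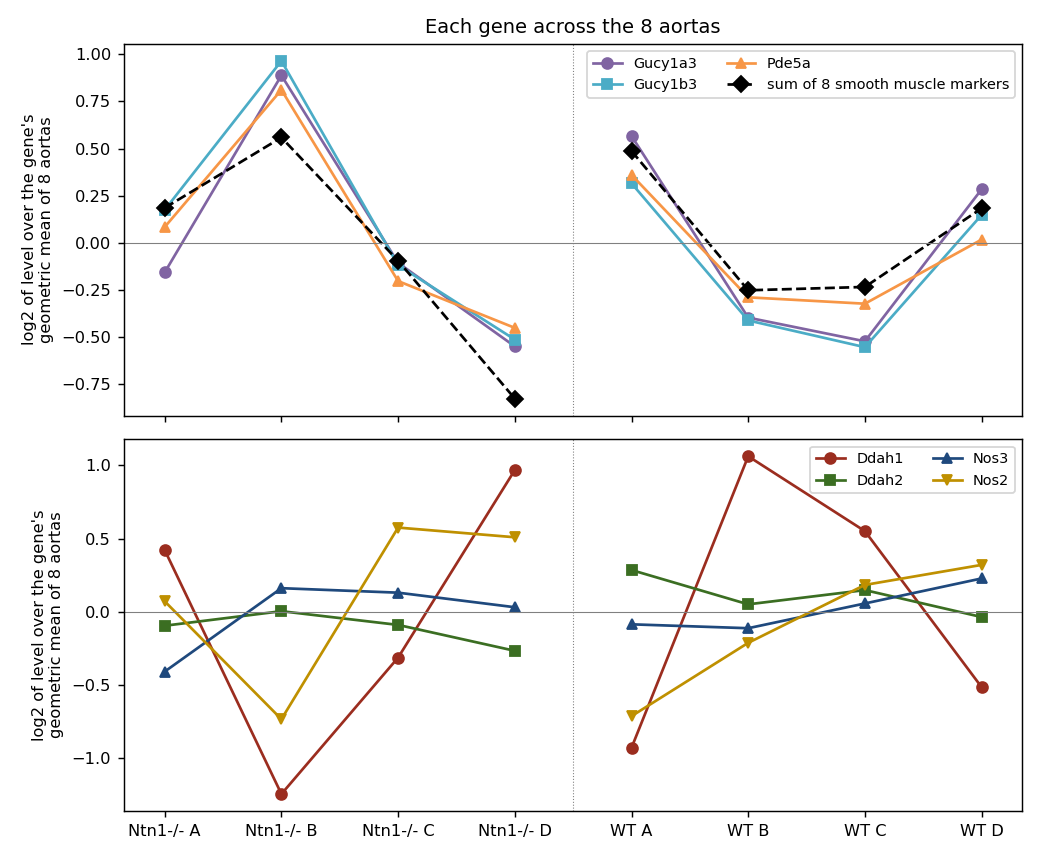
Level of each gene in each aorta as log2 over the geometric mean of the gene across the 8 aortas, Ntn1-/- at the left of the dotted line and WT at the right. In the upper panel Gucy1a3, Gucy1b3 and Pde5a peak in Ntn1-/- B and WT A, as does the sum of 8 smooth muscle markers (dashed), and in the lower panel Ddah1 is lowest in those aortas while Ddah2 and Nos3 vary least.

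Set against the smooth muscle markers of the same library, Gucy1b3 stood higher in Ntn1-/- aortas. This scale was chosen after the data were seen and is given with no test. Per 1000 normalized reads of the markers, Gucy1b3 had 2.64, 3.52, 2.61 and 3.30 in Ntn1-/- A to D, against 2.36, 2.38, 2.13 and 2.59 in WT A to D. Each Ntn1-/- aorta was above each WT aorta, although Ntn1-/- C and WT D were close, and the same separation in either direction was seen for 1.55% of all genes tested. Undivided, that share was 10.5%, so 1.55% is not a like background for a gene that already moved with the markers. Pde5a had 3.47, 4.44, 3.45 and 4.83 in Ntn1-/- A to D, against 3.41, 3.63, 3.50 and 3.32 in WT A to D, where only Ntn1-/- B and D were above the WT range. Gucy1a3 overlapped widely, with 2.70 to 4.30 in Ntn1-/- and 2.80 to 3.67 in WT.

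The balance of the 2 subunit transcripts was lower in each Ntn1-/- aorta than in each WT aorta. The ratio of Gucy1a3 to Gucy1b3 reads, which does not depend on the size factors, was 1.02, 1.22, 1.30 and 1.26 in Ntn1-/- A to D, against 1.53, 1.30, 1.32 and 1.42 in WT A to D. The groups were apart by a very small margin, with 1.301 in Ntn1-/- C and 1.303 in WT B. The means were 1.20 ± 0.122 in Ntn1-/- and 1.39 ± 0.107 in WT (SD, n = 4 each), and per exon length they came to 0.839 in Ntn1-/- and 0.973 in WT. Taken over Gucy1b3, 1.15% of all other genes tested had ratios with groups that did not overlap, in either direction. Undivided, the share was 10.5%, so 1.15% is not a like background for Gucy1a3, which already moved with Gucy1b3. No test was made of this ratio. Both transcripts have about the same GC content (44.6% for Gucy1a3 and 43.9% for Gucy1b3) but differ in length, with 4653 and 3251 exon bases. The part of either in the ratio was not tested.

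**Figure D4:**
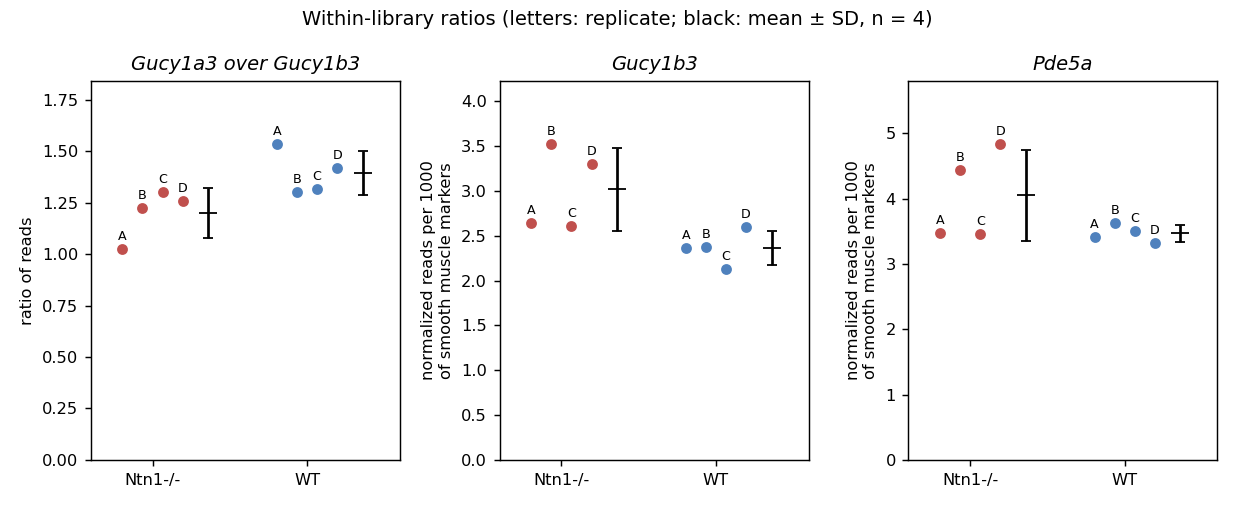
Ratio of Gucy1a3 to Gucy1b3 reads (left), and Gucy1b3 (middle) and Pde5a (right) per 1000 normalized reads of smooth muscle markers, in each aorta, Ntn1-/- in red left of WT in blue, with replicate letters and the mean ± SD (n = 4) in black. The Ntn1-/- points lie below the WT points for the subunit ratio, above them for Gucy1b3, and overlap with them for Pde5a.

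Gucy1a2, for the alpha-2 subunit that can replace alpha-1 in the cyclase (mm9, chr9:3532354-3897342, plus strand), was much lower. It had 118, 197, 113 and 122 normalized reads in Ntn1-/- A to D, against 101, 121, 96.8 and 100.2 in WT A to D. Ntn1-/- B stood far above the other aortas, and without WT B, which lay above Ntn1-/- A and C, the groups would not have overlapped. The means were 137 ± 39.8 in Ntn1-/- and 105 ± 11.2 in WT (SD, n = 4 each), with a log2 fold change of 0.35 and an interval of -0.08 to 0.79 (limma, unadjusted p = 0.100, adjusted p = 0.406). The estimate was 0.17 without Ntn1-/- B and 0.18 with length and GC content allowed for. As a ratio to Gucy1a3 reads it stood at 0.0556 to 0.0937 in Ntn1-/- and 0.0358 to 0.0837 in WT.

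Of the cGMP-dependent kinases, Prkg2 encodes type II, known mainly from intestine, kidney, brain and growing bone (mm9, chr5:99358792-99466370, minus strand). It was near the lower end of what could be measured, with 25.8, 40.9, 32.9 and 29.5 normalized reads in Ntn1-/- A to D, against 27.6, 26.0, 25.6 and 17.7 in WT A to D. Ntn1-/- B, C and D were above the WT range and Ntn1-/- A within it. The means were 32.3 ± 6.45 in Ntn1-/- and 24.2 ± 4.45 in WT (SD, n = 4 each), with a log2 fold change of 0.40 and an interval of -0.12 to 0.92 (limma, unadjusted p = 0.117, adjusted p = 0.425).

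Prkg1, for the type I kinase that is the main one of smooth muscle, was measured as another gene of the pathway. It had 668, 1035, 520 and 452 normalized reads in Ntn1-/- A to D, against 661, 465, 423 and 570 in WT A to D, with the same aorta, Ntn1-/- B, at the top. The log2 fold change was 0.28 (interval -0.30 to 0.86, limma, adjusted p = 0.618). Per 1000 normalized reads of smooth muscle markers, the scale chosen after the data were seen, it had 1.05, 1.26, 0.995 and 1.44 in Ntn1-/- A to D, against 0.844, 0.993, 0.892 and 0.900 in WT A to D. As for Gucy1b3 the groups did not overlap on that scale, here by the margin between Ntn1-/- C and WT B. The same was seen for 1.55% of all genes tested, with the limit given for Gucy1b3. On that scale Gucy1a2 overlapped, at 0.186 to 0.389 in Ntn1-/- and 0.129 to 0.259 in WT. Prkg2 also overlapped, at 0.0406 to 0.0938 in Ntn1-/- and 0.0279 to 0.0554 in WT.

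Between genes, levels can be set side by side only per length of exon, on the scale of normalized reads per kilobase. In that order Ddah2 was highest, with a mean of 924 ± 70.8 in Ntn1-/- and 1080 ± 104 in WT (SD, n = 4 each). Gucy1b3 followed at 536 ± 250 in Ntn1-/- and 432 ± 125 in WT, and Gucy1a3 at 448 ± 213 in Ntn1-/- and 427 ± 154 in WT, and the ranges of these neighbors overlapped across aortas. Within a library Gucy1a3 was the lower of them in 4 of 4 Ntn1-/- aortas and 3 of 4 WT aortas, with a ratio per kilobase of 0.716 to 0.909 in Ntn1-/- and 0.910 to 1.07 in WT. Over the 8 aortas Ddah2 ran from 828 to 1214 and Gucy1b3 from 311 to 891, so that their ranges met in the highest aorta for Gucy1b3. The ranges also overlapped among Nos3 (205 to 319), Pde5a (172 to 412) and Ddah1 (59.9 to 297). Nos2 (16.8 to 41.6) and Gucy1a2 (18.3 to 37.3) were below them and overlapped with each other, Prkg2 was at 3.29 to 7.62, and Nos1 at 0 to 0.171.

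Around these genes, 72 others of the pathway in 7 lists were examined, of which 57 were tested. The lists were chosen with earlier results of these data known. By limma 0 of the 57 were called, 23 had higher and 34 lower estimates in Ntn1-/-, and 1 higher and 3 lower were at an unadjusted p under 0.05, which is 7.02% of the 57 against 15.6% of all genes tested. The groups did not overlap for 1 higher gene (Abcc5) and 1 lower gene (Cygb), which is 3.51% of the 57 against 10.5% of all genes tested. DESeq2 called 2, Cygb and Mb, both lower, where it called 3% of all its genes, and edgeR called none. Their median log2 fold change was -0.06, against -0.01 over all genes tested.

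The 4 genes for removal of nitric oxide all had lower estimates in Ntn1-/-, with a median log2 fold change of -0.25. Cygb, for cytoglobin, a globin that consumes nitric oxide in the vessel wall, had 5336, 5635, 5224 and 5160 normalized reads in Ntn1-/- A to D, against 7070, 6033, 6459 and 6176 in WT A to D. Each Ntn1-/- aorta was below each WT aorta. The means were 5339 ± 210 in Ntn1-/- and 6434 ± 459 in WT (SD, n = 4 each), a log2 fold change of -0.27 with an interval of -0.44 to -0.09. This did not pass the test by limma (unadjusted p = 0.00744, adjusted p = 0.248) or edgeR (adjusted p = 0.229), and passed it by DESeq2 (adjusted p = 0.0232). With length and GC content allowed for, the estimate was -0.15. The 6 fibroblast markers, summing to 62112 to 83035 in Ntn1-/- and 70995 to 86840 in WT, also had lower estimates in 5 of 6 cases, and their part in the level of Cygb was not tested.

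Mb, the myoglobin of heart and oxidative skeletal muscle, had 366, 437, 583 and 776 normalized reads in Ntn1-/- A to D, against 1059, 656, 2034 and 1091 in WT A to D. WT C was highest and only WT B lay within the Ntn1-/- range, and the log2 fold change was -1.10 (limma, adjusted p = 0.249, DESeq2 adjusted p = 0.0425). The 4 cardiac muscle markers were also highest in WT C, at 9457, against 1307 to 3400 in Ntn1-/- aortas and 1329 to 3159 in the other WT aortas. WT D, the next highest for Mb, was the lowest of the WT aortas for them, at 1329. In the 3 brown adipocyte markers WT D was highest, at 69747, against 17099 to 37109 in Ntn1-/- aortas and 23263 to 30190 in the other WT aortas. The 8 skeletal muscle markers were highest in Ntn1-/- B and C, at 7485 and 7429, against 301 to 2630 in WT aortas. For Mb, Ntn1-/- B and C lay below each WT aorta. The part of any of these lists in the level of Mb was not tested. The third gene of this list by p, Cyb5r3, for a reductase that restores globins, had a log2 fold change of -0.24 (limma, adjusted p = 0.512).

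Among 9 genes of arginine supply and methylarginine metabolism 7 were tested, 1 with a higher and 6 with lower estimates. Arg1, for the arginase of liver and of alternatively activated macrophages, which competes with the synthases for arginine, had 33.2, 17.1, 11.0 and 42.5 normalized reads in Ntn1-/- A to D, against 56.4, 39.9, 81.6 and 106 in WT A to D. Only Ntn1-/- D and WT B overlapped, and the log2 fold change was -1.50 with an interval of -2.54 to -0.46 (limma, unadjusted p = 0.00988, adjusted p = 0.249, DESeq2 adjusted p = 0.0606). Without Ntn1-/- B and C it was -0.81. Beside it, 6 liver markers, which include Alb and are foreign to the aorta, summed to 1399, 134, 447 and 311 in Ntn1-/- A to D, against 5376, 195, 5405 and 6550 in WT A to D, where WT B, the WT aorta lowest in Arg1, was also lowest. Within Ntn1-/-, A was highest for the liver markers but D for Arg1. The 7 macrophage markers all had lower estimates in Ntn1-/-, summing to 17935 to 72564 in Ntn1-/-, where D was highest, and 29515 to 65086 in WT. The part of either list in the level of Arg1 was not tested. Asl, for argininosuccinate lyase, which regenerates arginine, had a log2 fold change of -0.23 (limma, adjusted p = 0.324), and Slc7a1, for an arginine transporter, one of 0.27 (limma, adjusted p = 0.412).

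All 13 regulators of the synthases were tested, 4 with higher and 9 with lower estimates. Nos1ap, for an adaptor that binds the neuronal synthase, had 95.6, 65.6, 35.9 and 46.0 normalized reads in Ntn1-/- A to D, against 35.7, 40.8, 35.0 and 28.3 in WT A to D. Ntn1-/- A, B and D were above the WT range, and the log2 fold change was 0.70 (limma, unadjusted p = 0.0457, adjusted p = 0.313), or 0.45 without Ntn1-/- A. Nosip, for a protein that draws the endothelial synthase away from the membrane, came to -0.14 (limma, adjusted p = 0.382), and Akt1, whose kinase phosphorylates that synthase, to -0.12 (limma, adjusted p = 0.438).

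Tetrahydrobiopterin is the cofactor that the synthases need. Of its 6 genes, 2 had higher and 4 lower estimates. Gch1, for the rate-limiting enzyme of its synthesis, had 199, 265, 301 and 239 normalized reads in Ntn1-/- A to D, against 199, 198, 210 and 223 in WT A to D. Ntn1-/- B, C and D lay above the WT range, with a log2 fold change of 0.26 (limma, adjusted p = 0.377), or 0.076 without Ntn1-/- B and C. Spr, for the last enzyme of the synthesis, came to -0.17 (limma, adjusted p = 0.530) and Qdpr, which recycles the cofactor, to -0.10 (limma, adjusted p = 0.666).

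Of 14 genes listed as other phosphodiesterases acting on cGMP, 10 were tested, 6 with higher and 4 with lower estimates. The 10 include Pde6d and Pde6g, which do not themselves encode a catalytic subunit. Pde10a came to 0.39 (limma, adjusted p = 0.332) and Pde9a, specific for cGMP, to 0.32 (limma, adjusted p = 0.396). Pde3a, which breaks down cyclic AMP and is inhibited by cGMP, had 627, 823, 215 and 283 normalized reads in Ntn1-/- A to D, against 277, 259, 187 and 236 in WT A to D. The highest were Ntn1-/- A and B, with Ntn1-/- C within the WT range, and the log2 fold change was 0.83 with an interval of -0.08 to 1.74 (limma, adjusted p = 0.355), or 0.51 without Ntn1-/- B.

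Of 11 genes listed as other guanylyl cyclases and natriuretic peptides, 5 were tested, 1 with a higher and 4 with lower estimates. The list includes the particulate arm of the pathway, where natriuretic peptides act through membrane guanylyl cyclases. Npr1, for the receptor of atrial natriuretic peptide, was abundant at 4809 to 9663 normalized reads in Ntn1-/- and 6109 to 9667 in WT, with a log2 fold change of -0.19 (limma, adjusted p = 0.714). Nppc, for C-type natriuretic peptide, came to -0.65 (limma, adjusted p = 0.448) but had only 6 to 20 reads per library. Nppa, for atrial natriuretic peptide itself, ran over 34.4-fold between aortas, from 8.97 to 268 in Ntn1-/- and 14.1 to 309 in WT. Its log2 fold change of -1.81 had an interval of -4.67 to 1.05 (limma, adjusted p = 0.509) and became -0.42 without Ntn1-/- B and C and -2.89 without Ntn1-/- D. The aortas highest in Nppa, Ntn1-/- D (268) and WT A, B and C (70.2, 309 and 276), were also highest in the cardiac muscle markers. These markers summed to 3400 in Ntn1-/- D and 3029, 3159 and 9457 in WT A to C. They summed to 1307 to 1775 in the other Ntn1-/- aortas and 1329 in WT D. Their part in the level of Nppa was not tested.

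The list of the cGMP kinase and its effectors holds Prkg1 itself and genes that act on or bind cGMP without the kinase. Of its 15 genes 12 were tested, 9 with higher and 3 with lower estimates and a median log2 fold change of 0.13. Abcc5, for a transporter that exports cGMP from cells, had 1565, 1653, 1444 and 1499 normalized reads in Ntn1-/- A to D, against 1428, 1375, 1420 and 1359 in WT A to D. Each Ntn1-/- aorta was above each WT aorta, by a log2 fold change of 0.14 with an interval of -0.01 to 0.29 (limma, unadjusted p = 0.0572, adjusted p = 0.332), and with length and GC content allowed for the estimate was -0.05. Ppp1r12a, for the targeting subunit of myosin phosphatase, a substrate of the kinase, had 1471, 3228, 920 and 922 in Ntn1-/- A to D, against 1279, 816, 635 and 1232 in WT A to D, a log2 fold change of 0.58 (limma, adjusted p = 0.520) with Ntn1-/- B far above the rest and an estimate of 0.18 without it. Vasp, for an actin-binding substrate of the kinase, came to -0.14 (limma, adjusted p = 0.539).

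**Figure D5:**
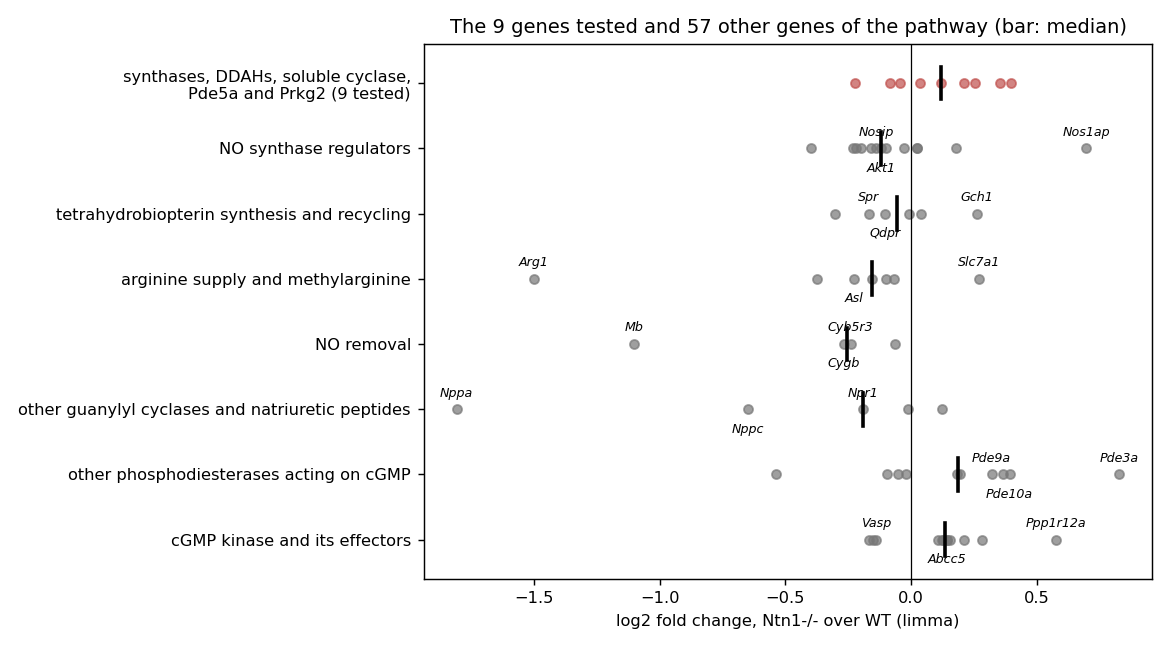
Log2 fold change, Ntn1-/- over WT (limma), of the 9 tested genes in red at the top and of the 57 other tested genes of the pathway in grey by list, with the median of each list as a black bar and the genes of the other lists that the text describes named. None passed limma's test. The medians run from -0.25 for removal of nitric oxide to 0.19 for other phosphodiesterases acting on cGMP.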

How the data were processed

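RNA of whole aortas was sequenced on a HiSeq (single-end, 50 nucleotides). The authors aligned reads to mm9 with TopHat2 2.0.9, allowing 2 mismatches, and assigned them to genes with featureCounts, whose annotation and strand setting are not given in the sources used here. The deposited values are a signal: the authors' read counts, each divided by its library's DESeq2 size factor. The deposited fold changes, p-values and pathway tables of the authors' own comparison were not used. Whole reads were recovered for 100% of 187360 values (tolerance 0.001). No 2 libraries were duplicates (chi-square per degree of freedom 9.6 to 175 over 28 pairs).

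limma 3.58.1 (eBayes with a trend, R 4.3.3) was fitted to log2(value + 1), a scale that understates changes of low genes, keeping genes that averaged 10 or more, at an adjusted p under 0.05 (Benjamini-Hochberg). The fit was tested on simulated data. Alternatives were pseudocounts of 0.5 and 5, no filter, edgeR 4.0.16, DESeq2 1.42.0 and limma-voom on recovered reads, a replicate block, a length and GC correction per library, leaving out Ntn1-/- B and C, and leaving out each library. Positions, lengths and GC content came from a GENCODE annotation of mm9 that may not be that of the authors. The 10 genes, the lists and the tests were chosen with earlier results of these data known. Named were the 10 genes, up to 3 genes with the smallest p of each other list, and the 3 genes most like each tested synthase. Prkg1, Atg9b and Ntn1 were added after their values were seen. Replicate letters are shared by the groups, but the deviations of same-lettered libraries correlated at -0.01 (A), -0.30 (B), 0.15 (C) and -0.26 (D), so they do not pair the mice.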

Additional observations from a re-analysis of the deposited data

Results flagged for a closer look

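In 3 cases 1 aorta stood far from the other 3 of its group. Gucy1a2 was at 197 normalized reads in Ntn1-/- B, against 113 to 122 in the other Ntn1-/- aortas. Nppa was at 268 in Ntn1-/- D, against 8.97 to 19.1 in the other Ntn1-/- aortas, and WT aortas also held both high and low values. Ntn1-/- D was also the highest of its group in the cardiac muscle markers, at 3400 against 1307 to 1775. Pde9a was at 76.5 in Ntn1-/- A, against 112 to 116 in the other Ntn1-/- aortas. Over the 60 groups examined chance gives about 3 such cases.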

How the results depend on the processing

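By limma 0 genes of the whole table were called, and the same held under each alternative except DESeq2, which called 495 (293 higher and 202 lower in Ntn1-/-), Cygb (log2 fold change -0.27) and Mb (-1.16) among them. With a replicate block 0 genes were called and 1806 were at an unadjusted p under 0.05, against 2333 without it. No tested gene of the 10 passed the threshold under any of the 19 alternatives. Without Ntn1-/- B and C the groups of 1 gene, Ddah2, did not overlap (28.3% of all genes then), and the estimates turned to -0.34 for Gucy1a3, -0.044 for Gucy1b3, -0.13 for Pde5a and 0.65 for Ddah1. With the length and GC correction, with or without the replicate block, they turned to -0.079 for Gucy1a3, -0.096 for Pde5a, 0.064 for Spr, 0.037 for Qdpr and -0.046 for Abcc5. Leaving out each library in turn, 0 to 1 genes had groups that did not overlap (Prkg2 without Ntn1-/- A, Ddah2 without Ntn1-/- B or WT D, Gucy1a2 without WT B), where 11.9% to 17.7% of all genes did not overlap. Estimates that changed sign ran from -0.10 to 0.086 for Nos3 (turned without Ntn1-/- A or WT D), -0.25 to 0.23 for Gucy1a3 (Ntn1-/- B, WT B or WT C), -0.027 to 0.47 for Gucy1b3 and -0.13 to 0.29 for Pde5a (both Ntn1-/- B), and -0.42 to 0.32 for Ddah1 (Ntn1-/- B, Ntn1-/- C, WT B or WT C). The cause of these shifts was not tested. Nos2, Gucy1a2, Prkg2 and Ddah2 kept the sign of their estimate under the 19 alternatives but not its size, with ranges of 0.0089 to 0.49 for Nos2, 0.17 to 0.44 for Gucy1a2, 0.20 to 0.50 for Prkg2 and -0.29 to -0.03 for Ddah2. Depth limits Nos1, with 4 reads, and Prkg2, with 15 to 43 reads per library. It also limits Nppc, with 6 to 20 reads per library, and the low ends of Arg1 and Nppa, with 11 and 9 reads in their lowest libraries.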
